A study of Homo sapiens with 4 samples.

Results

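The genes of fatty acid beta-oxidation and of the carnitine shuttle that feeds it were examined for chromatin accessibility in A375, an established human melanoma cell line, after treatment with octanoate, a medium-chain fatty acid. The assay was ATAC-seq, which reads out accessible DNA through insertions of the Tn5 transposase. There were 2 libraries from cells given 1 mM octanoate for 48 h and 2 from cells given the vehicle isopropanol for the same time, all grown in serum-containing DMEM. The members were the deposited regions that overlapped the RefSeq GRCh38 span of 1 of 34 named genes extended by 10 kb on both sides, which gave 103 of 125986 regions. Of these, 31 were promoter regions, lying within 1 kb of a start, and 72 were other regions. RefSeq's promoter table listed a start for 25 of the genes. The other 9 (CPT1B, CRAT, ACAD11, DECR1, DECR2, ETFDH, ACOX2, EHHADH and ACAA1) were placed by either end of their span.

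Beta-oxidation shortens fatty acids stepwise into acetyl-CoA. Long chains need the carnitine shuttle to cross the inner mitochondrial membrane, whereas medium chains such as octanoate can enter the matrix largely without it. Inside, each round consists of a dehydrogenation, a hydration, a second dehydrogenation and a thiolytic cleavage, and electrons from the acyl-CoA dehydrogenases pass through the electron transfer flavoprotein to the respiratory chain. Peroxisomes hold a parallel pathway that shortens very long and branched chains and hands medium-chain products on as carnitine esters.

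Promoter sequence is shown for 5 genes on which the description below turns. CROT had the promoter region with the lowest p, and ECHS1 and ACAA2 had the highest and the lowest promoter log2 fold change. HADHA faces HADHB across a single shared region, and no region lay within 1 kb of the 1 listed start of CPT1A. Each line holds the 250 bases before the start, 5′ to 3′ on the gene's strand, from RefSeq GRCh38.p14. Capitals mark the GC box (GGGCGG or CCGCCC) and the CCAAT box (CCAAT or ATTGG).
CROT, chr7:87345414-87345663, plus strand: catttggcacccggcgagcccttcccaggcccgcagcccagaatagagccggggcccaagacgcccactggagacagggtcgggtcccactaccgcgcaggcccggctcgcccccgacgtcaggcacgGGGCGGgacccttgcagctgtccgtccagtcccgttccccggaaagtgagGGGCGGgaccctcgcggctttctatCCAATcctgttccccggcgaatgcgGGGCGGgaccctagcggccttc
ECHS1, chr10:133373355-133373604, minus strand: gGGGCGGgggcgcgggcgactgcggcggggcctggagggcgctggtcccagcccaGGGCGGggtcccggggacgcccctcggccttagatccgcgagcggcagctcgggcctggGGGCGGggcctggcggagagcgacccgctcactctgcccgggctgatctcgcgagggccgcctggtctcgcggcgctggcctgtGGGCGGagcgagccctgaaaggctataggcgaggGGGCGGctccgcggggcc
ACAA2, chr18:49813534-49813783, minus strand: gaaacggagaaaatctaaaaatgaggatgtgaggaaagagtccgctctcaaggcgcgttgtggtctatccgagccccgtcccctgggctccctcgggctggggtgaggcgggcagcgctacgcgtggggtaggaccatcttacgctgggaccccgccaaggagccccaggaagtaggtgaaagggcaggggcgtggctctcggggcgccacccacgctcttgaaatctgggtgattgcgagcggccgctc
HADHA, chr2:26244633-26244882, minus strand: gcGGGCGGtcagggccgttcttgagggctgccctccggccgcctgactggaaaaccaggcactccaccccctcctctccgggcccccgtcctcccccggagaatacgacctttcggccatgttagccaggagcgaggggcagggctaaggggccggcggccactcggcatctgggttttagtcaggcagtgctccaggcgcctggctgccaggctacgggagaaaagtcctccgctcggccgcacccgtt
CPT1A, chr11:68844278-68844527, minus strand: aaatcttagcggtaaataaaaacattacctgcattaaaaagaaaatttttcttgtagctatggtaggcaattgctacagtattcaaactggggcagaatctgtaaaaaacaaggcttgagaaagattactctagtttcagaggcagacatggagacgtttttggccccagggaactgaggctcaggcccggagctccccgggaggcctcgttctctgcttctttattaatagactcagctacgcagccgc

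In these windows ECHS1 had 5 GC boxes and CROT had 3 GC boxes and 1 CCAAT box. HADHA had 1 GC box, and neither motif occurred in the windows of ACAA2 and CPT1A. Over windows from 250 bases before to 50 after each start, a GC box was found at 26 of the 33 listed starts of the genes (78.8%) and at 56.3% of 22183 starts of protein-coding genes. Some windows of neighbouring starts overlap, so the same bases can count more than once. By gene, 22 of the 25 with a listed start had a GC box, and no such count was made over all protein-coding genes. A CCAAT box was found at 7 starts (21.2%, against 34.7%), and the NRF1 core GCGCATGC or its reverse complement at 2 (6.06%, against 3.74%), those of ACAD10 and CPT1C. A nuclear receptor core motif (AGGTCA or TGACCT) was found at 1 start, that of ACAD10 (3.03%, against 11.9%). Neither the estrogen-related receptor element TCAAGGTCA nor a direct repeat of the core motif with 1 base between the copies, as PPAR and RXR bind, was found at any of the 33 starts, on either strand. The shares over protein-coding starts were 0.243% and 0.0225%. The core motif is contained in both of these longer motifs, and a match describes letters, not a bound site. The GC content of the windows ran from 40.7% to 79.0%, with a median of 67.3% against 62.3% over all starts.

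Most of the genes had open chromatin at their start. A promoter region was listed for 30 of the 34 genes (88.2%), against 72.8% of protein-coding genes. The 4 genes without one were CPT1A, CPT1B, CPT1C and ACOX2. CPT1A and CPT1B encode the carnitine palmitoyltransferases of the outer mitochondrial membrane, which make the first acylcarnitine and are the controlled entry step for long chains, whereas CPT1C encodes a related protein of the endoplasmic reticulum. The nearest region to the 1 listed CPT1A start lay 2148 bp away inside the gene, with a mean of 16.4 normalized reads over the 4 libraries in the authors' deposited table. Starts of CPT1A that RefSeq's promoter table does not list were not considered, so a region at such a start would count as an other region. For CPT1B the nearest region lay 3591 bp from an end of the gene, at the CHKB gene, and for CPT1C it lay 9905 bp away. A region missing from the table was not called by the authors, which does not show closed chromatin.

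Accessibility is compared between regions as mean normalized reads per kb of region. The promoter regions of the genes had a median of 69.4 reads per kb, against 47.8 over 14760 promoter regions of protein-coding genes, and 22 of the 31 lay above that value. The most accessible by this measure were those of ACADM (122 reads per kb), CROT (116) and ETFDH (112), the medium-chain acyl-CoA dehydrogenase, the peroxisomal carnitine octanoyltransferase and the ubiquinone oxidoreductase of the pathway. The lowest were those of DECR2 (32.5) and SLC25A20 (35.2). Of the other regions, the most accessible lay within SLC22A5, 19783 bp from its start, with 118 reads per kb (chr5:132389493-132390321), more than the SLC22A5 promoter region at 71.0. The genes had between 1 and 7 regions each, with a median of 2.5, and the promoter regions held 63.6% of the summed mean reads of all 103.

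The authors' comparison of octanoate with vehicle called none of these regions. Of the 103, 25 were tested, meaning that their mean of at least 63.8 normalized reads put them among the 11185 regions over which the authors' deposited table holds an adjusted p. With the authors' DESeq2 test and Benjamini-Hochberg adjustment, 0 of the 25 had an adjusted p under 0.05, against 1.02% of all tested regions and 0.317% of the 6628 tested promoter regions. At those shares 25 regions would hold less than 1 call, so the count of 0 is near the background. The lowest adjusted p was 0.236, for a region beyond the end of ETFB. At an unadjusted p under 0.05, the authors' deposited table had 3 of the 103 regions higher after octanoate and 0 lower. Those shares, 2.91% and 0%, stand beside 3.58% higher and 0.179% lower over all 125985 nuclear regions. Of the 31 promoter regions 1 was higher by this measure (3.23%), against 4.46% of all promoter regions of protein-coding genes. The labels do not say whether the 2 libraries of a group came from separate cultures, so the p-values measure the spread between these libraries, which may be technical. The table holds no value per library, so values are given below as the mean over the 4 libraries, the log2 fold change of octanoate over vehicle and its standard error.

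Fold changes lay above 0 in most regions of the table, at a median of 0.23 over nuclear regions, so each value is to be read against that offset. The 31 promoter regions had a median log2 fold change of 0.21 (quartiles 0.044 and 0.28, range -0.17 to 0.48), and 27 were above 0 (87.1%). All promoter regions of protein-coding genes had a median of 0.13 (quartiles -0.0011 and 0.27), with 74.9% above 0. The 95% interval of the log2 fold change (normal, from the authors' standard error) included 0.13, the median of all promoter regions, in 31 of 31. It included 0 in 30. The values of the 31 regions had an SD of 0.16, less than the median standard error of 1 region, 0.25, so the order of the genes below is not resolved. The intervals lay below a log2 fold change of 1 in 27 of the 31 regions and above -1 in all 31. In bulk libraries a change in the share of cells with an open region and a change in its openness per cell cannot be told apart.

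**Figure D1:**
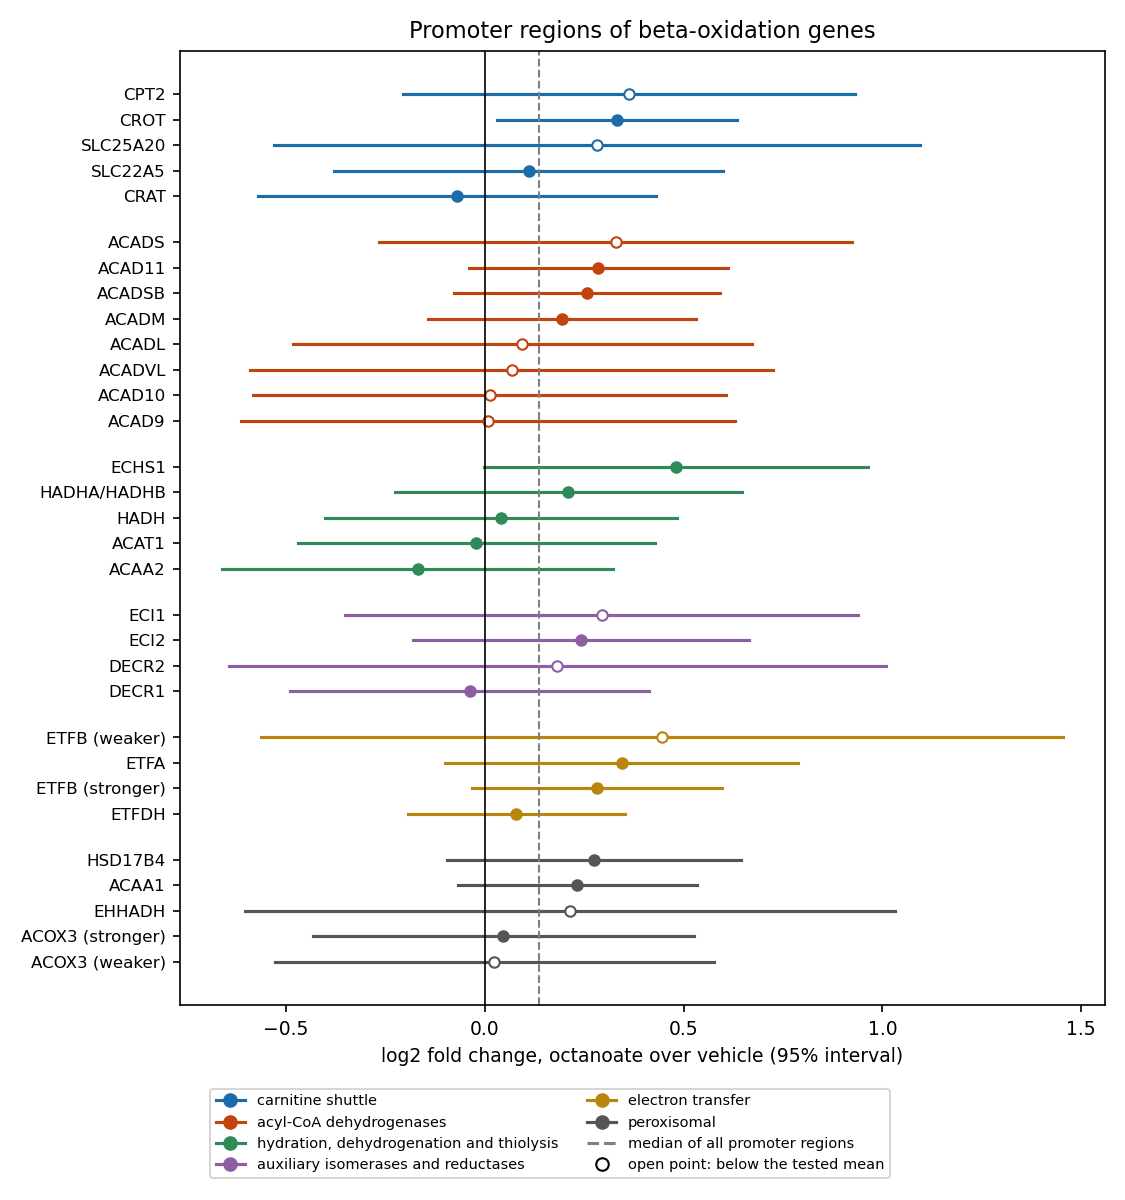
Log2 fold change of octanoate over vehicle (x axis) for the 31 promoter regions, grouped and coloured by the role of the gene, with points at the authors' values and bars at the 95% interval. Filled points are tested regions, and the dashed line is the median of all promoter regions, 0.13, which every bar crosses. Values run from -0.17 at ACAA2 to 0.48 at ECHS1.

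Among the 8 genes of the carnitine shuttle, CROT had the promoter region with the lowest p of the 31. CROT encodes the peroxisomal carnitine octanoyltransferase, which forms carnitine esters of medium-chain acyl-CoA. Its promoter region (chr7:87344539-87346231) had a mean of 197 normalized reads. That mean and the fold change imply 174 reads per library in vehicle and 219 after octanoate. The log2 fold change was 0.33 (standard error 0.15, p 0.0314, adjusted p 0.278) in the authors' deposited table, a 1.26-fold difference that did not pass the threshold. Tested against the median of all tested regions, the value was 0.14 with an unadjusted p of 0.347. CPT2, the inner-membrane transferase that releases acyl-CoA in the matrix, had 0.36 (standard error 0.29) at its promoter region, and SLC25A20, the carnitine-acylcarnitine carrier, had 0.28 (standard error 0.41). SLC22A5, the plasma membrane carnitine transporter, was at 0.11 (standard error 0.25), and CRAT, carnitine acetyltransferase, at -0.070 (standard error 0.26). The intervals of these 4 promoter regions overlapped each other and included 0. The 16 other regions of the group had a median of 0.23. They include all regions of the CPT1 genes: the 4 of CPT1A lay between 0.041 and 0.70, the 2 of CPT1B at 0.10 and 0.34, and the 1 of CPT1C at -0.52. None of these 7 had a p under 0.05 in the authors' deposited table, near the background of 3.58% higher and 0.179% lower over all nuclear regions.

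The acyl-CoA dehydrogenases catalyse the first step of each round, with different chain lengths as substrates, and all 8 had a promoter region. Their log2 fold changes ran from 0.0069 to 0.33 with a median of 0.14, close to that of all promoter regions. Of the 8, 0 had an unadjusted p under 0.05 in the authors' deposited table, which is near the background of 4.46% of all promoter regions. ACADM, whose product breaks down medium chains such as octanoyl-CoA, had a promoter region (chr1:75723968-75725207) with a mean of 151 reads. The authors' deposited table gave it 0.19 on the log2 fold scale (standard error 0.17, adjusted p 0.623). The implied means were 141 reads in vehicle and 161 after octanoate. ACADVL, ACADL and ACADS act on very long, long and short chains, and their values were 0.067, 0.094 and 0.33. ACADSB, which acts in isoleucine breakdown, was at 0.26. ACAD9, which also serves complex I assembly, was at 0.0069, and ACAD10 and ACAD11 were at 0.012 and 0.29. The 18 other regions of these genes had a median of 0.082, and 11 were above 0. The highest of them, inside ACADSB (chr10:123043292-123043799), had a log2 fold change of 0.71 with a standard error of 0.39 and a p of 0.0681.

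The enzymes of hydration, the second dehydrogenation and thiolysis held the highest and the lowest promoter values. ECHS1, the short-chain enoyl-CoA hydratase, had a promoter region (chr10:133373146-133373920) with a mean of 79.2 reads and implied means of 66.1 in vehicle and 92.2 after octanoate. Its log2 fold change was 0.48 (standard error 0.25, adjusted p 0.338) in the authors' deposited table. ACAA2, the mitochondrial 3-ketoacyl-CoA thiolase, had a promoter region (chr18:49812991-49814601) with a mean of 73.1 reads, implied means of 77.4 and 68.8 in the same order, and a value of -0.17 on the same scale (standard error 0.25, adjusted p 0.787). The 95% intervals of these 2 regions, -0.0030 to 0.96 and -0.66 to 0.32, overlapped. HADHA and HADHB, the subunits of the trifunctional protein for long chains, share 1 promoter region (chr2:26244360-26245518) between their opposed starts, at 0.21 (standard error 0.22). HADH, the dehydrogenase for shorter chains, was at 0.041, and ACAT1, a thiolase that also acts in ketone body metabolism, at -0.021. All 5 promoter regions of the group were tested, and 0 passed, which is near the background of 0.317% of all tested promoter regions.

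The auxiliary enzymes handle double bonds of unsaturated chains. Their promoter regions had log2 fold changes of 0.29 for the isomerase ECI1, 0.24 for the isomerase ECI2, 0.18 for the reductase DECR2 and -0.038 for the reductase DECR1. With standard errors from 0.22 to 0.42, each interval included 0. The 4 other regions of the group ranged from -0.33 to 1.49. The highest, outside ECI2, had a mean of 3.59 reads and a standard error of 1.24, so it carries little information.

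The electron transfer genes had promoter values above 0 in all 4 regions, as had 74.9% of all promoter regions of protein-coding genes. ETFA and ETFB encode the subunits of the electron transfer flavoprotein, with 0.34 (standard error 0.23) for ETFA and 0.28 (standard error 0.16) for the stronger promoter region of ETFB. The weaker ETFB region, at a second listed start, was at 0.45 (standard error 0.51). ETFDH, which passes the electrons to ubiquinone, had the highest mean of the 103 regions, 257 reads, and a log2 fold change of 0.079 (standard error 0.14), with implied means of 250 in vehicle and 264 after octanoate. Beyond the end of ETFB lay a region (chr19:51338673-51340679) with a mean of 110 reads and implied means of 91.3 in vehicle and 129 after octanoate. Its log2 fold change was 0.50 (standard error 0.22, p 0.0217, adjusted p 0.236) in the authors' deposited table. Relative to the median of tested regions it was 0.32, with an unadjusted p of 0.149. All 6 regions of ETFB were above 0, from 0.20 to 0.50, as were 72.1% of all nuclear regions. The 6 regions come from the same libraries and are not replicates.

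The peroxisomal genes had 5 promoter regions between 0.023 and 0.27. HSD17B4, the D-bifunctional protein, was at 0.27 (standard error 0.19), ACAA1, the peroxisomal thiolase, at 0.23 (standard error 0.15) and EHHADH, the L-bifunctional protein, at 0.21 (standard error 0.42). The 2 promoter regions of the oxidase gene ACOX3 were at 0.023 and 0.047. ACOX2, the branched-chain acyl-CoA oxidase, had 4 other regions, of which the strongest (chr3:58526181-58527079) had implied means of 63.7 reads in vehicle and 86.3 after octanoate. The authors' deposited table gave this region 0.44 on the log2 fold scale (standard error 0.24, adjusted p 0.382). HSD17B4 had 6 other regions along its 89.8 kb span, from -0.19 to 0.27.

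A promoter region is not always that of 1 gene. Besides the region shared by HADHA and HADHB, 8 of the 31 also had a start of a protein-coding gene outside the pathway list within 1 kb, or an end where no start was listed: BRAP (with ACAD10), IKZF5 (ACADSB), DLG4 (ACADVL), PTPA (CRAT), CLDND2 (ETFB), C4orf46 (ETFDH), MYD88 (ACAA1) and TRMT44 (ACOX3). For these regions the fold change cannot be assigned to either gene.

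Away from the starts, the 72 other regions had a median log2 fold change of 0.24 (quartiles -0.058 and 0.49), and 52 were above 0. The 58783 other regions within 10 kb of a protein-coding gene had a median of 0.25 (quartiles -0.044 and 0.55). Promoter regions were lower than other regions by 0.031 at the median in these genes and by 0.12 over all protein-coding genes, and with the 9 genes without a listed start left out the promoter regions of the rest were higher by 0.00056. The 72 regions had few reads, with a median mean of 14.1 against 11.3 over the 58783, and 6 were tested. Per kb of region their median was 31.6 reads against 27.5, and 43 of the 72 lay above the median of their class. Besides those of ETFB and ACOX2, the tested ones were at CZIB near CPT2 (0.30), inside SLC22A5 (0.28), at CHKB near CPT1B (0.10) and upstream of ACADVL (-0.052), with adjusted p from 0.561 to 0.940. All 31 promoter regions overlapped a start or end, and the nearest regions outside the 1 kb limit were those of ETFA (1321 bp, 0.68) and ACADM (1372 bp, -0.43). Of the 72, 41 overlapped the span of the gene and 31 lay outside, and 10 were at the start of a neighbouring gene, among them ALDH2 beside ACAD10 and PRKAR2A beside SLC25A20.

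**Figure D2:**
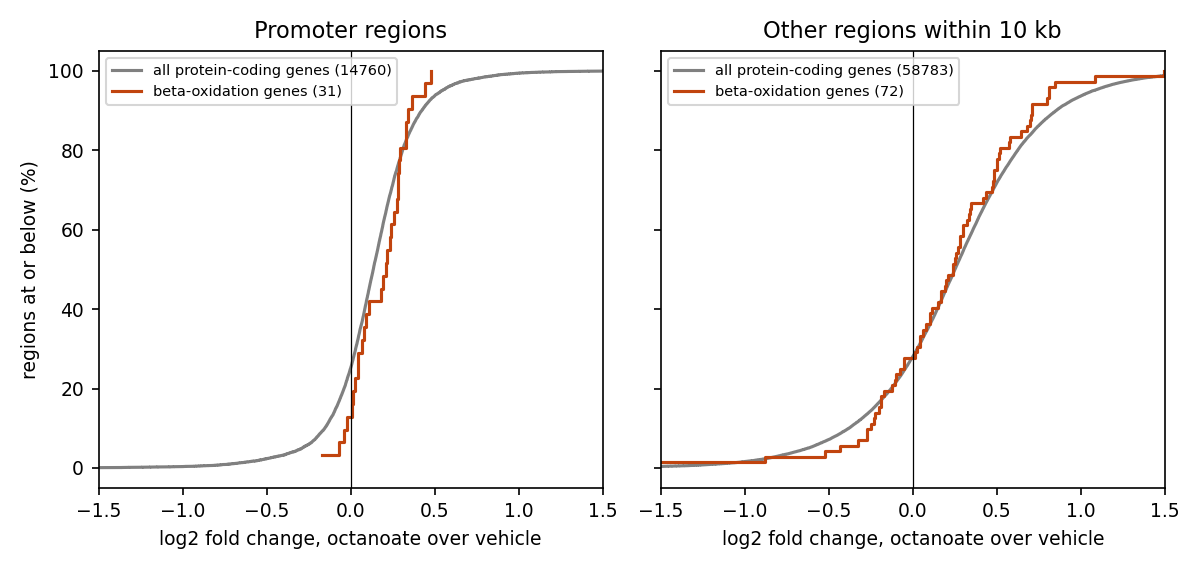
Share of regions (y axis, %) at or below each log2 fold change (x axis), for promoter regions on the left and other regions within 10 kb on the right, with the beta-oxidation genes in red and all protein-coding genes in grey. The red line lies to the right of the grey one around the middle of the left panel (medians 0.21 and 0.13) and close to it in the right panel (0.24 and 0.25), and values outside the drawn range are not shown.

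The lowest p of the 103 regions belonged to a region beyond the end of ECHS1 (chr10:133357083-133358164), 15190 bp from its start and at the start of FUOM. It had a mean of 46.5 reads, below the tested level, with implied means of 34.0 in vehicle and 59.0 after octanoate. The log2 fold change was 0.80 (standard error 0.31, p 0.00940) in the authors' deposited table, and its adjusted p is listed there as 1, as for every region that was not tested. Tested against the median of tested regions, 0.19, this region was at 0.61 with p 0.0467. Its 95% interval, 0.20 to 1.40, included 0.25, the median of all other regions within 10 kb of a protein-coding gene. The third region of ECHS1, at PAOX, was at 0.52 (standard error 0.34), so the 3 regions of this gene all had values of at least 0.48. They lie within 429 kb of the outermost listed region of the long arm of chromosome 10. Of the 103 regions 11 lay within 5 Mb of an outermost region of their chromosome, the others being those of DECR2, ECI1, ECI2 and CPT1B, which ranged from -0.33 to 1.49. The part of the chromosomal position in the ECHS1 values was not tested.

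Among the 74 regions with a mean at or above the table's median of 12.2 reads, the 5 highest log2 fold changes were those of the FUOM region near ECHS1 and of regions at ACADSB (0.71), ECI2 (0.71), ETFA (0.68) and ACOX3 (0.58). The 5 lowest were at CPT1C (-0.52), at NME4 near DECR2 (-0.33), at DVL2 near ACADVL (-0.23), at ALDH2 near ACAD10 (-0.20) and at the ACAA2 promoter (-0.17). Of these 10, the FUOM region was the 1 whose interval, 0.20 to 1.40, did not include 0. That interval did include 0.25, the median of all other regions within 10 kb of a protein-coding gene.

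**Figure D3:**
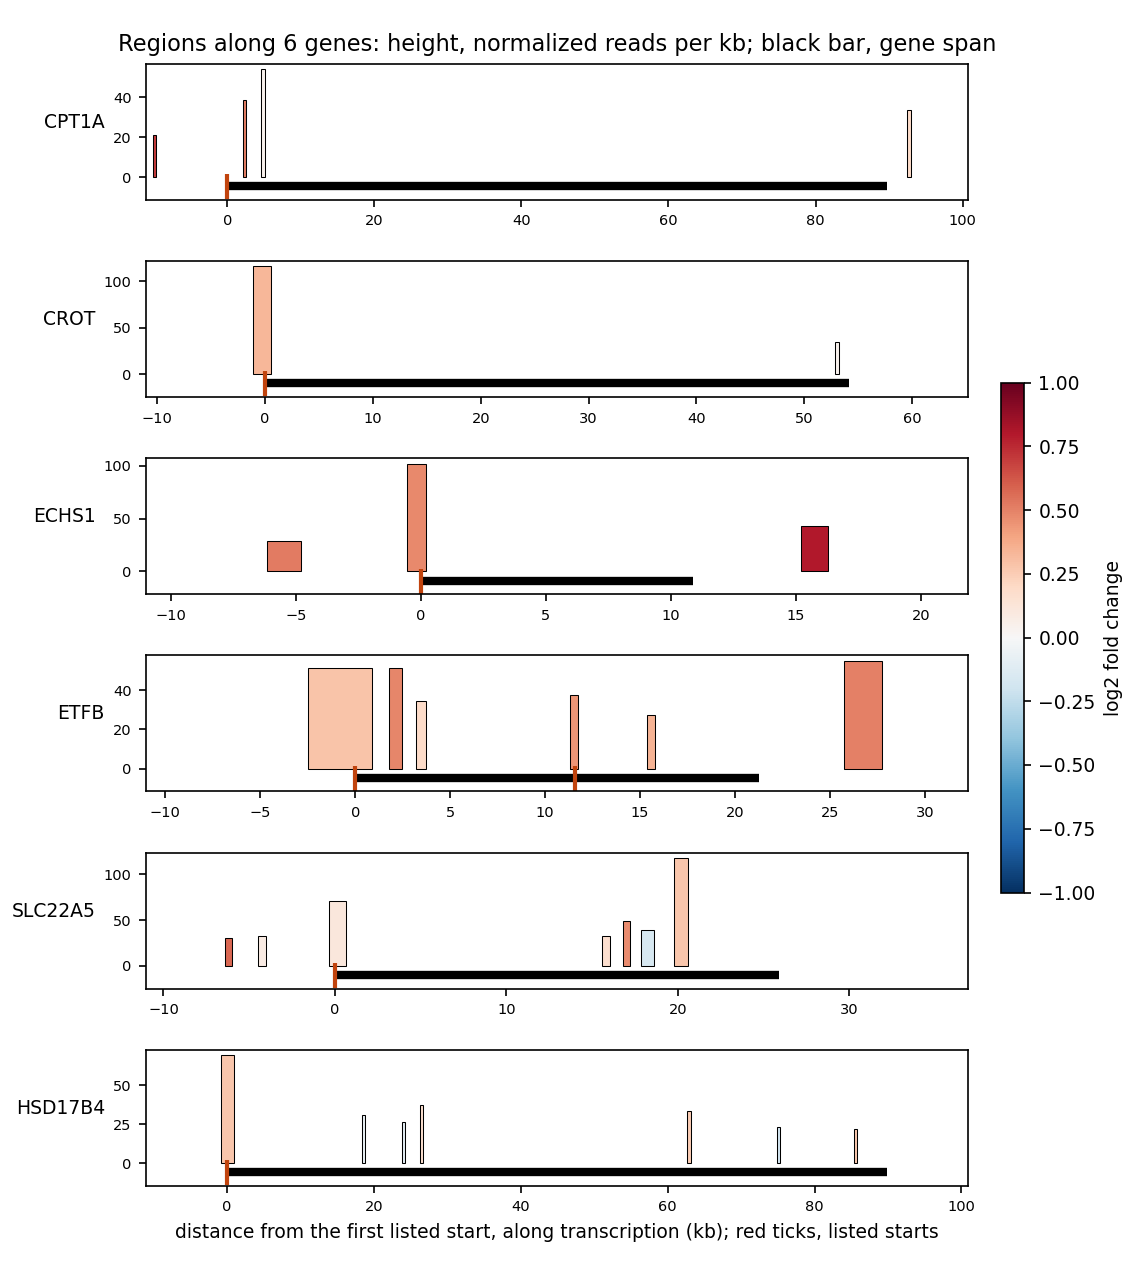
Regions along CPT1A, CROT, ECHS1, ETFB, SLC22A5 and HSD17B4, by distance from the first listed start along transcription (x axis, kb), with height in mean normalized reads per kb and colour for the log2 fold change. Black bars are gene spans, red ticks are listed starts, and bars are drawn at least 0.4 kb wide. CPT1A has no bar at its listed start, and the tallest bar of SLC22A5, 118 reads per kb, lies inside the gene.

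The precision differed between the kinds of region. The median standard error was 0.25 for the promoter regions and 0.56 for the other regions. The interval lay below a log2 fold change of 1 in 19 of the 72 other regions and above -1 in 48, so for the rest the interval did not exclude a value of that size. The depth of each library is unknown.

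**Figure D4:**
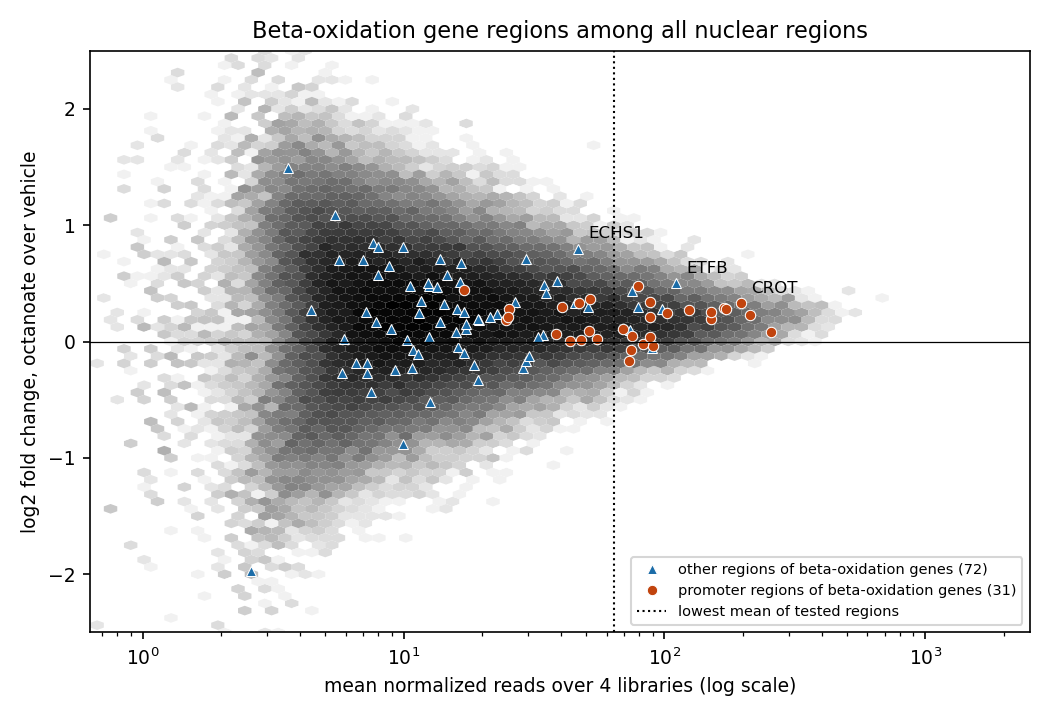
Log2 fold change (y axis) against mean normalized reads over 4 libraries (x axis, log scale) for all nuclear regions (grey, darker where more regions fall), with promoter regions (circles) and other regions (triangles) of the beta-oxidation genes. The dotted line is the lowest tested mean, 63.8, and the 3 labelled regions of ECHS1, ETFB and CROT have an unadjusted p under 0.05. Some grey regions lie outside the drawn range.

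Genes that work beside beta-oxidation were described in the same way. The list of 27 genes held 172 regions, 20 of them tested. Of these 20, 0 passed the adjusted threshold in either direction, which is near the background of 1.02% of all tested regions. The median log2 fold change of the 172 was 0.24, with 0.15 over 35 promoter regions and 0.30 over 137 others. At an unadjusted p under 0.05, 3 of the 172 regions were higher and 0 lower in the authors' deposited table: 1 region of ACSL5 (0.63, standard error 0.32) and 2 of PPARGC1A (0.66 and 1.31, standard errors 0.33 and 0.53). The share of 1.74% higher lay below the 3.58% over all nuclear regions. The acyl-CoA synthetases of the activation step (ACSL1, ACSL3, ACSL4, ACSL5, ACSL6, ACSM1, ACSM3 and ACSM5) had 40 regions with a median of 0.35, and 35 were above 0 (87.5%). Over all nuclear regions the median was 0.23 and 72.1% were above 0. Of the medium-chain synthetases, ACSM1, ACSM3 and ACSM5 had promoter regions with means of 6.18, 8.08 and 4.72 reads. The strongest promoter regions of ACSL1, ACSL3, ACSL4, ACSL5 and ACSL6 had 95.4, 124, 45.1, 6.44 and 22.7, so the levels of the 2 families overlapped. These means are not per kb of region.

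The regulators (PPARA, PPARD, PPARGC1A, PPARGC1B, ESRRA, MLYCD, ACACB and PDK4) had values between 0.029 and 0.39 at the strongest promoter region of the 7 genes that had one. PDK4, a kinase that restrains pyruvate oxidation and a PPAR target, was at 0.16 (standard error 0.22, adjusted p 0.766) in the authors' deposited table. PPARGC1A, a coactivator of oxidative genes, had 40 of the 172 regions, and without it the median of the list was 0.28 over 132 regions. Of the other peroxisomal genes, ABCD2, ABCD3, SCP2, AMACR, PHYH and HACL1 had values between 0.021 and 0.36 at the strongest promoter region of each. Of the ketone body genes, BDH1 and OXCT1 were at 0.14 and -0.12.

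The labelled cell type was checked at marker genes, with a region within 1 kb of the start, or of either end of the span for SOX10, PMEL, EPCAM, KRT18, CD3E, PECAM1 and CDH5, which had no listed start. Of 8 melanocytic genes, 5 had such a region, with mean reads of 168 at MITF, 58.2 at PAX3, 34.2 at PMEL, 30.0 at DCT and 15.7 at SOX10. TYR, MLANA and TYRP1 had none. Of 7 genes of epithelial, immune and endothelial cells, 3 had one, with mean reads of 77.5 at KRT8, 70.1 at CD3E and 34.0 at KRT18, so the levels of the 2 lists overlapped. EPCAM, PTPRC, PECAM1 and CDH5 had none. At an unadjusted p under 0.05, the authors' deposited table had 0 of 63 regions of the melanocytic genes and 3 of 33 of the others (9.09%) higher after octanoate, against 3.58% of nuclear regions. Their part in the values of the beta-oxidation genes was not tested.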

How the data were processed

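ATAC-seq was measured in 4 libraries of A375 cells, 2 per group, grouped by sample title. The submitters' processing notes name Trim Galore, cutadapt, FastQC, Bowtie2, Picard, MACS2, featureCounts, DESeq2, bedtools 2.29.1 and hg38, without their roles. Settings, Tn5 offset correction and pooling of libraries for peak calling are not given in the sources used here.

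The authors deposited 1 results table for octanoate over vehicle, in which 0 columns hold a single library. The deposited signal is each region's mean of normalized reads, per the file headers. The deposited log2 fold change has its standard error beside it, their ratio is the deposited score (a Wald statistic), and the deposited p-value is two-sided. Deposited adjusted p-values equalled a Benjamini-Hochberg correction restricted to 11185 regions, those whose mean was 63.8 or more, and were 1 elsewhere. Those others count as not tested, not as an adjusted p of 1.

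With Python 3.11.15 and pandas 2.3.3, regions were assigned to RefSeq GRCh38.p14 genes as the report describes, with coordinates counted from 1. Intervals of 95% are normal, from the authors' standard errors. Implied group means combine the deposited mean and fold change, and assume equal numbers of libraries with the fitted ratio. Motifs and GC content come from RefSeq's promoter table. The adjustment and the assignment were tested on simulated data.

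The rule named the strongest promoter region of each gene, tested regions, regions with a p under 0.05, and the 5 highest and 5 lowest fold changes at or above the median mean. Some genes of the lists beside the pathway are counted in the totals and not reported here by name. The members and lists were chosen with earlier results of these data known. Alternatives covered the adjustment, the threshold, the offset, the extension, the promoter distance, the signal and 1 region per gene.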

Additional observations from a re-analysis of the deposited data

How the results depend on the processing

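The count of regions with an adjusted p under 0.05 was 0 under each of the 5 alternatives run: adjustment over all regions, an adjusted p under 0.1, a test against the median of tested regions, no extension of the gene span, and an extension of 50 kb. The count at an unadjusted p under 0.05 moved from 3 to 1 when the log2 fold change was tested against the median of tested regions, which left the FUOM region near ECHS1 (p 0.0467), and CROT and the ETFB region then had p 0.347 and 0.149. These values of single regions were added after seeing the data. The FUOM region is below the tested level, and its interval included 0.25, the median of all other regions within 10 kb of a protein-coding gene. The count was 1 of 72 regions without the extension and 8 of 266 with 50 kb, where the number of regions changes by construction. The promoter median of 0.21 was -0.020 and the other median of 0.24 was 0.012 relative to the median of all nuclear regions, because that median was subtracted. The promoter minus other difference of -0.031 was 0.00056 when the 9 genes without a listed start were left out, an alternative chosen after seeing the data, and it was -0.081 among tested regions. The remaining alternatives kept each median within 1 standard error of a median region divided by the square root of the number of regions.

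No paired analysis was possible because single libraries have no values in the deposited table. Leaving out a replicate, and tests on counts, were not run for that reason.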

Other observations

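Across 11712 promoter regions with a listed start, the GC content from 250 bases before to 50 after the start was compared with the authors' deposited log2 values, as a description over regions of the same libraries. Each start was matched to the region with the highest mean within 1 kb. A region matched to several starts was represented by the window with the lowest GC content. Pearson's r was -0.016 and Spearman's rho 0.0046. With the regions split into 4 ranges of GC content with about equal numbers, from low to high, the median log2 fold change was 0.13, 0.14, 0.14 and 0.14, while the median mean was 44.5, 65.8, 69.4 and 65.5 reads. Starts with no region within 1 kb had a median GC content of 51.7%, against 65.3% for starts with one. The listed CPT1A start, with no region, had 50.0%, and the 3 listed starts of CPT1C had 57.7%, 59.7% and 67.0%. HADH had a second listed start with a GC content of 40.7% and no region, beside a first at 74.3% that had one.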
